A study of Gallus gallus with 5 samples.

Results

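To ask how somite progenitors of 2 developmental stages differ at the moment they are placed side by side, single-cell transcriptomes were compared within 1 library of a heterochronic graft, HH8-HH4 0 hr. HH8 and HH4 are stages of the Hamburger and Hamilton series: at HH4 the primitive streak is fully extended, and at HH8 the node has begun to regress and the first somites have formed. HH8 donors had been incubated for 30 hr and came from a chicken line that carries an eGFP transgene, whose promoter is not given in the sources used here. Wild-type HH4 hosts had been incubated for 20 hr. Tissue from the 90% level of the streak, where medial somite progenitors lie, was moved from donor to host, and the grafted region with the host tissue around it was dissected 30 min later and dissociated, with 5 to 10 grafts pooled. All hosts were held in New culture, an ex ovo culture of the embryo on its own membranes. HH4-HH4 0 hr, used beside it below, also had wild-type HH4 hosts, with HH4 donors of the eGFP line incubated for 20 hr, and HH8-HH4 3 hr the same pairing as the main library collected 3 hr after grafting.

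Graft cells were taken as barcodes with at least 3 unique molecular identifiers (UMIs) of eGFP and host cells as those with 0, among barcodes with at least 2000 UMIs in all. This gave 2029 graft cells and 1726 host cells of 4038 barcodes in the library and 11137 barcodes over the 5 samples of the series. A further 210 barcodes with 1 or 2 eGFP UMIs were left out, as were 73 under the minimum. Both groups stand for 1 pool of embryos each in 1 library, so that cells are not replicates, no test was made, and every interval covers counting error only. Stage, line (transgenic against wild type), the handling of the graft and the wider region dissected from the host differ together between the groups and cannot be told apart within the library. The sexes of the pooled embryos may differ as well. A high level of HINTW, a gene of the W chromosome, which only female birds carry, was found in 44.8% of host and 1.97% of graft cells.

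Some background helps to place the genes. The primitive streak is the site where epiblast cells leave the surface layer and become mesoderm and endoderm. At its anterior end lies the node, the organizer of the avian embryo, which secretes inhibitors of BMP and Nodal signalling. Hox genes are switched on in the streak in an order that follows their position in each cluster, so that a progenitor of an older embryo carries transcripts of more 5′ members, and Cdx factors, Wnt and Fgf signals promote this activation. Somite progenitors keep the T-box factor T (brachyury) while they remain in the streak, and switch on MSGN1 and TBX6 as they become presomitic mesoderm.

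Depth was similar in the 2 groups, with a median of 8838 UMIs in graft and 9039 in host cells, and sums of 19060377 and 16219752 UMIs. Graft cells had a median of 10 eGFP UMIs and a maximum of 36. The library shared 1 or 2 barcodes with each of the other samples. Scrublet called 63 of the graft cells (3.10%) and 9 of the host cells (0.521%) doublets, and these were kept. The 6940 features held 0 genes of the mitochondrial genome, so this sign of cell quality was not measured. T was detected in 1673 of 2029 graft cells (82.5%) and 1474 of 1726 host cells (85.4%) when every cell was reduced to 2000 UMIs, and in 97.4% of both without thinning, so that cells with T made up most of both groups.

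The levels changed steeply with eGFP at the limits used. HOXA7 stood at 24.5 CPM (UMIs of the gene per 1000000 UMIs, summed over cells) in cells with 0 eGFP UMIs, at 158 in the 165 cells with 1, at 1129.9 in the 45 cells with 2 and at 2162 in the 66 cells with 3. Above the limit it stayed between 2162 and 2532 CPM in every class. MIXL1 went the other way, from 1652 CPM at 1 eGFP UMI to 492 at 2, 248 at 3 and 38.9 at 20 or more. By HOXA7 and MIXL1, cells with 1 eGFP UMI thus lay nearer to host cells and those with 3 nearer to graft cells. HINTW and SOX17 were still raised in cells with 3 eGFP UMIs, at 1049 and 85.5 CPM, and stood at 146 and 11.9 CPM in cells with 4. At the limit on depth, HOXA7 stood at 149 CPM in the 41 host cells with under 3000 UMIs and at 581 in the 32 barcodes of 1000 to 2000 UMIs without eGFP, which were left out.

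**Figure D1:**
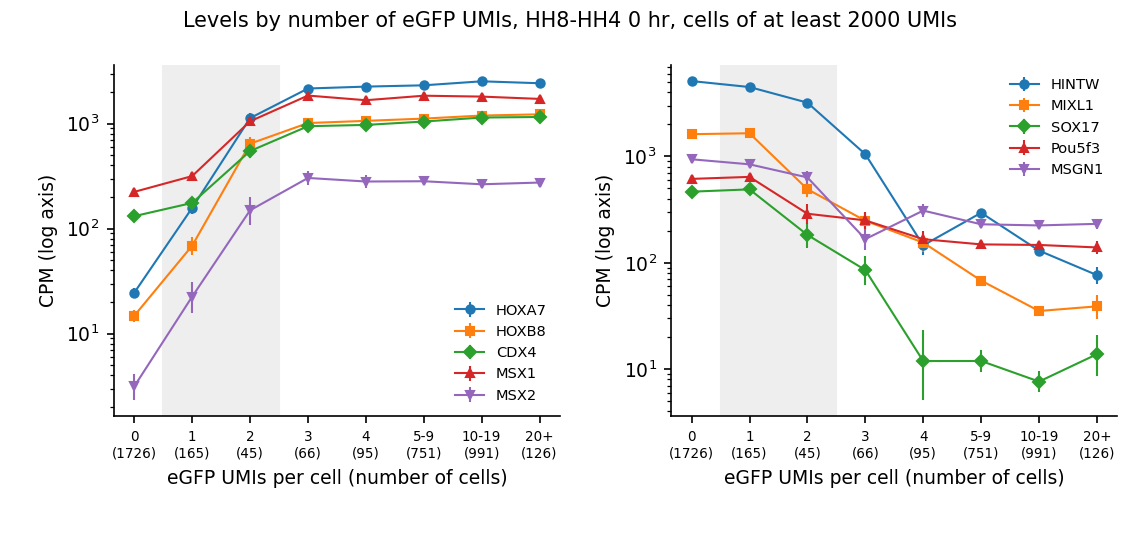
Levels of 5 genes higher in graft cells (left) and 5 higher in host cells (right) against the number of eGFP UMIs per cell, with the number of cells in brackets, on a log axis in CPM; bars are 95% Poisson intervals and the grey band marks the cells left out. HOXA7 is at 24.5 CPM at 0 eGFP UMIs and at 2162 CPM at 3, and SOX17, MIXL1 and HINTW go the other way.

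Most genes stood at a like level in the 2 groups. Among 4387 genes with at least 100 UMIs over both groups, the log2 ratio of graft over host cells (10 CPM added to each level) had a median of -0.08, and 3592 genes (81.9%) lay within 0.5 of 0. A difference of at least 2-fold on this scale is what higher and lower stand for from here on. The 10 added CPM hold the ratio of low genes low, so that a low gene can differ several-fold and still stay under 2-fold. Where 2 levels are given together, that of graft cells comes first and that of host cells second, and a value after them in brackets is the log2 ratio. By this measure 79 genes (1.8%) were higher and 181 (4.13%) were lower in graft cells, and at 4-fold 24 genes (0.547%) were higher and 39 (0.889%) lower. The counts given for each gene list below stand against the shares of 1.8% and 4.13%. A gene scarce in 1 group can pass the minimum of 100 UMIs through the other group alone. It can then be called in that direction or not at all. The genes at the higher end were led by HOX genes, MSX2, MSX1, DLX5, CDX4, FABP7, FGF19 and WNT5A, and those at the lower end by factors of the anterior streak, node and endoderm.

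**Figure D2:**
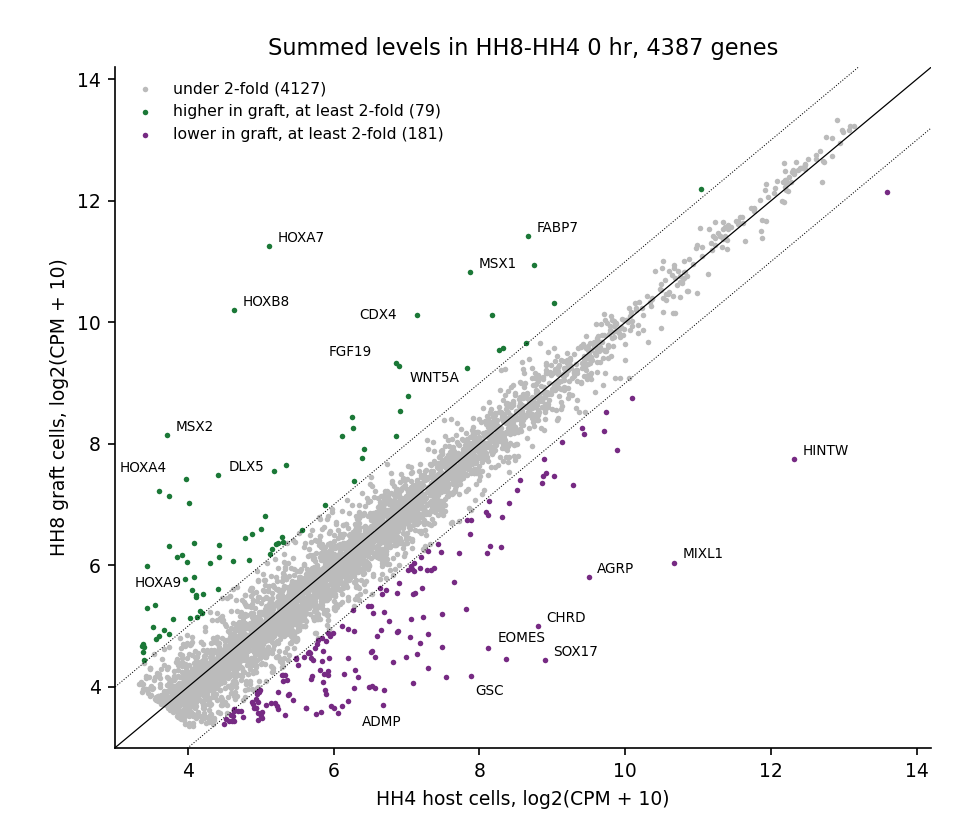
Summed levels of 4387 genes in HH8 graft cells (vertical) against HH4 host cells (horizontal) of HH8-HH4 0 hr, as log2(CPM + 10), with dotted lines at 2-fold; green points are the 79 genes higher and purple points the 181 genes lower in graft cells. HOXA7 lies farthest above the diagonal, at 6.15 on the log2 scale, and MIXL1 farthest below, at -4.62.

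The 2 largest differences were those of HOX genes. Of 23 in the files 16 were measured, and 11 of these were higher in graft cells and 0 lower, against 1.8% and 4.13% of all genes, with a median log2 ratio of 1.96. HOXA7 stood at 2434 CPM in graft cells (2412 to 2457) and 24.5 CPM in host cells (22.2 to 27.1), which was the largest difference in the library, at 6.15 on the log2 scale. HOXB8 followed, at 1163 CPM in graft and 14.8 CPM in host cells (log2 ratio 5.56). In HH4-HH4 0 hr HOXA7 was at 0 CPM in graft and 0.0376 CPM in host cells, and HOXB8 at 0 and 0.263 CPM, where 0 UMIs in graft cells allows up to 0.284 CPM (3 UMIs of the total).

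Within the HOXA cluster the differences spread over 6 of 7 measured members, all DNA-binding factors that give cells their position along the body axis. HOXA6 stood at 139 CPM in graft and 2.10 CPM in host cells (log2 ratio 3.63), HOXA4 at 162 and 5.73 CPM (3.45) and HOXA5 at 131 and 3.33 CPM (3.40). HOXA9, the most 5′ member measured, was at 53.4 and 0.801 CPM (2.55), or 1017 UMIs against 13. HOXA2 differed less, at 77.4 and 17.6 CPM (1.67), and HOXA3 did not reach 2-fold with 10 CPM added, at 12 and 2.53 CPM (0.81). Besides HOXB8, the other clusters held HOXD4, higher at 69.4 and 3.33 CPM (2.57), and HOXB5, at 61.9 and 5.06 CPM (2.26). Their remaining higher members were HOXC9 at 15.5 and 0.308 CPM (1.31) and HOXD8 at 13.9 and 0.432 CPM (1.20). HOXC9 and HOXD8 were each under 1 CPM in host cells, where 10 added CPM holds the log2 ratio low.

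HOXB1, an early member at the 3′ end of its cluster, was the exception, with 360.0 CPM in graft and 326 CPM in host cells and a log2 ratio of 0.14. Also in HH4-HH4 0 hr it was present in both groups, at 159 CPM in graft and 188 CPM in host cells. HOXB4 (18.1 and 6.54 CPM), HOXC8 (6.82 and 0.185 CPM) and HOXB3 (10.9 and 5.49 CPM) were low in both groups and did not reach 2-fold with 10 CPM added. With 1 CPM added, 14 HOX genes were higher. The 7 members below the minimum of 100 UMIs were HOXA10, HOXA11, HOXA13, HOXC10, HOXD11, HOXD12 and HOXD13, which include all the most 5′ members in the files.

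The difference was shared by nearly all cells. With every cell reduced to 2000 UMIs, HOXA7 was detected in 91.8% of graft cells (95% Clopper-Pearson interval 90.5 to 93) and 5.39% of host cells (4.37 to 6.56), and HOXB8 in 86.6% and 3.07%. Without thinning the shares were 98.9% and 17.9% for HOXA7. Either gene was found in 1996 of 2029 graft cells (98.4%) and in 136 of 1726 host cells (7.88%) at 2000 UMIs, and in 99.9% and 26% without thinning. HH4 cells of HH4-HH4 0 hr, which should lack them, gave 0 of 720 graft cells, which allows a share of up to 0.417% (taken as 3 cells of the total), and 1 of 1764 host cells (0.0567%), at median depths of 13773 and 14574 UMIs before thinning. The HOXA7 level per cell ran from 305 CPM at the 5th percentile over 2148 at the median to 5157 at the 95th in graft cells, while in host cells the median was 0 and the 95th percentile 136. These ranges did not overlap between the 5th percentile of the one and the 95th of the other.

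Host cells of HH8-HH4 0 hr therefore held more HOXA7 and HOXB8 transcripts than host cells of HH4-HH4 0 hr, which were under 1 CPM of each. Their HOXA7 level, at 24.5 CPM, was 1.01% of that in graft cells, and the shares for HOXB8, HOXA6, HOXA5 and HOXA4 were 1.27%, 1.51%, 2.55% and 3.54%. MSX2 was at 1.15%, RASGRP3 at 5.06% and DLX5 at 6.68%. Of the host UMIs of HOXA7 and HOXB8, 15.4% came from 6 cells with over 1000 CPM of both together, a limit chosen after the values were seen. Free RNA from graft cells as a source of the rest was not tested.

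**Figure D3:**
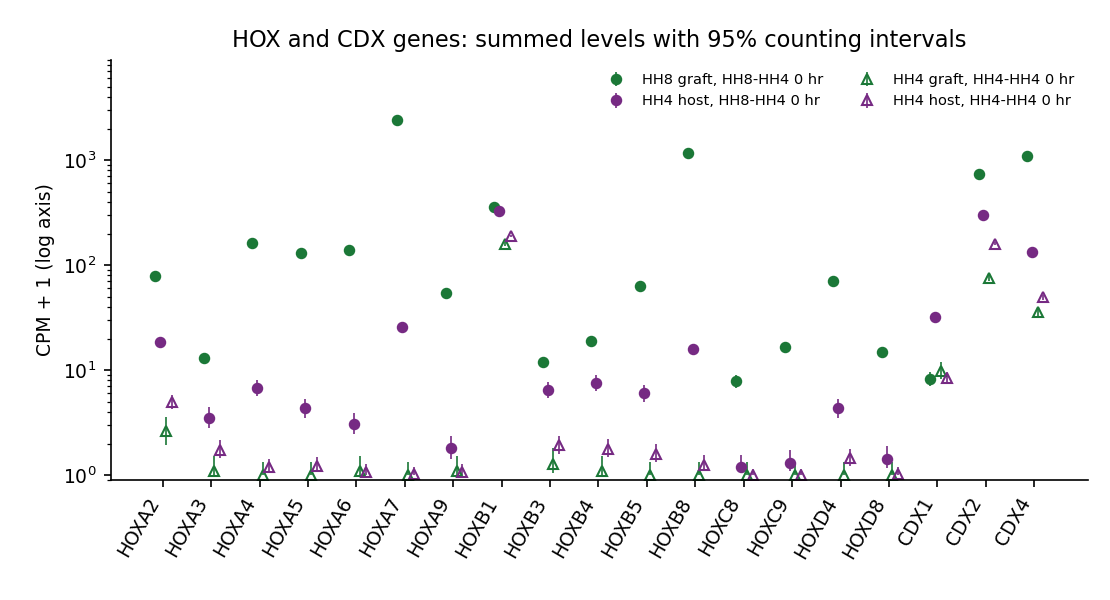
Summed levels of 16 HOX and 3 CDX genes, as CPM + 1 on a log axis, in graft (green) and host cells (purple) of HH8-HH4 0 hr (filled circles) and HH4-HH4 0 hr (open triangles), with 95% Poisson intervals. All HH8 graft values but that of CDX1 lie above those of the other 3 groups, HOXB1 by little.

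The 3 caudal genes, which encode homeobox factors that act upstream of Hox genes, did not move together. CDX4 was at 1103 CPM in graft and 132 CPM in host cells (log2 ratio 2.97) and CDX2 at 739 and 299 CPM (1.28), whereas CDX1 was lower, at 7.24 and 31.2 CPM (-1.26). CDX4 was detected in 86.7% of graft and 18.6% of host cells at 2000 UMIs, and in 99.3% and 45.0% without thinning. In HH4-HH4 0 hr it was found in 5.42% of graft and 8.33% of host cells at 2000 UMIs. HH4 host cells of the 2 libraries thus differed, with CDX4 at 132 CPM beside HH8 grafts and 48.6 CPM beside HH4 grafts.

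Among the 8 genes listed as caudal and posterior factors 3 were higher, 4 lower and T was neither, with a median of -0.79. SP8, a zinc finger factor, was higher at 81.7 and 19.5 CPM (1.64), while its relative SP5, a target of Wnt signalling, was lower at 296 and 670.0 CPM (-1.15). T stood at 1125 CPM in graft and 1600.2 CPM in host cells (-0.5), a difference under 2-fold. Its cell values overlapped broadly, from 151 CPM at the 5th to 2210.0 at the 95th percentile in graft cells and from 161 to 3517 in host cells.

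Signals of the posterior growth zone were higher for a few ligands and targets, lower for 2 members and under 2-fold apart for the rest. Of 26 measured members 5 were higher and 2 lower, against 1.8% and 4.13% of all genes, with a median of 0.16. FGF19, a secreted fibroblast growth factor, was at 636 CPM in graft and 105 CPM in host cells (2.49), and FGF8, the main FGF of the streak and presomitic mesoderm, at 753 and 309.7 CPM (1.26). WNT5A, a non-canonical Wnt ligand, was at 615 and 109 CPM (2.40). The Wnt feedback inhibitors APCDD1 and AXIN2, both targets of the canonical pathway, stood at 337 and 66.5 CPM (2.18) and 158 and 67.9 CPM (1.10). Other ligands of the list were even: WNT3A at 117 and 91.1 CPM, WNT8A at 326 and 267 CPM, FGF18 at 174 and 153 CPM and FGF4 at 19.7 and 17.1 CPM. The receptor FZD7 (8.34 and 50.7 CPM, -1.73) and the secreted Wnt antagonist SFRP1 (11.2 and 103 CPM, -2.41) were lower in graft cells, and FZD10, another receptor, did not reach 2-fold (0.89). The readouts of FGF signalling DUSP6 (20.9 and 30.1 CPM, -0.37), ETV5 (162 and 178 CPM, -0.13) and SPRY2 (73.5 and 34.2 CPM, 0.92) did not reach it either, nor did the Wnt agonist RSPO3 (-0.01) and the Wnt effector LEF1 (-0.03).

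In the BMP list the MSX genes and most ID genes were higher, and the node genes CHRD, ADMP and FST were lower. Of 20 measured members 5 were higher, 3 lower and 12 neither, against 1.8% higher and 4.13% lower of all genes, with a median of 0.45. MSX2 was at 273 CPM in graft cells (266 to 281) and 3.14 CPM in host cells (2.34 to 4.13), a log2 ratio of 4.43. Its relative MSX1, like MSX2 a homeobox factor induced by BMP, was at 1811 and 224 CPM (2.96). The ID proteins, inhibitors of basic helix-loop-helix factors and direct BMP targets, were graded: ID1 at 1959 and 422 CPM (2.19), ID2 at 363 and 109.9 CPM (1.64) and ID3 at 209 and 73.7 CPM (1.39), with ID4 even at 267 and 223 CPM (0.24). Ligands lay just under the limit, BMP4 at 75.1 and 33.4 CPM (0.97) and BMP2 at 98.4 and 46.2 CPM (0.95), and the receptors BMPR1A and BMPR2 were even. The feedback inhibitors SMAD6 (38.1 and 18.7 CPM, 0.74) and BAMBI (41.2 and 25.8 CPM, 0.52), themselves BMP targets, did not reach 2-fold. The 3 members that were lower were all antagonists or node ligands: CHRD, which encodes the antagonist chordin, at 22 and 435 CPM (-3.80), ADMP, a BMP-like ligand of the node, at 3.04 and 92.2 CPM (-2.97), and FST, which encodes follistatin, at 1.63 and 30.4 CPM (-1.80). The antagonist noggin, NOG, had its higher level in graft cells, at 13.2 and 1.60 CPM, just short of 2-fold with 10 CPM added.

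Of the 15 highest genes MSX1 alone was also 2-fold higher in HH4 grafts than in their own hosts, at 252 and 117 CPM in HH4-HH4 0 hr (1.04). Its level per cell ran from 551 to 3494 CPM between the 5th and 95th percentiles in HH8 graft cells and from 0 to 794 in host cells, so that the cells overlapped.

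Ectoderm and neural border genes were higher in 6 of 9 measured members and lower in 0, with a median of 2.07. DLX5, a homeobox factor of the border of the neural plate, was at 169 CPM in graft and 11.3 CPM in host cells (3.07), and FABP7, the brain-type fatty acid binding protein, at 2736 and 396 CPM (2.76). GATA2 (191 and 30.7 CPM, 2.30) and TFAP2A (60.2 and 4.44 CPM, 2.28), factors of non-neural ectoderm, and the border factors PAX3 (56.2 and 5.80 CPM, 2.07) and PAX7 (21.7 and 1.42 CPM, 1.47) were also higher. The epithelial genes of the list were not: CLDN3 and KRT7 stood at 0.48 and 0.43, and EPCAM at 532 and 964 CPM (-0.85). A UMI of TFAP2A or DLX5 was found in 525 graft cells (25.9%, 24 to 27.8) and 48 host cells (2.78%, 2.06 to 3.67) at 2000 UMIs, and in HH4-HH4 0 hr in 2.5% of graft and 2.32% of host cells. Without thinning the shares in HH8-HH4 0 hr were 52.1% and 13.2%.

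Node genes were nearly all lower. Of 14 measured members 12 were lower by at least 2-fold and 0 higher, against 4.13% and 1.8% of all genes, and the median was -2.46. CER1, a secreted antagonist of Nodal, BMP and Wnt ligands, was at 11.9 CPM in graft and 318 CPM in host cells (-3.90), and GSC, the homeobox factor of the prechordal cells, at 8.08 and 226 CPM (-3.70). The homeobox factors HHEX (5.46 and 93 CPM, -2.74), GNOT2 (19.1 and 146 CPM, -2.42), OTX2 (2.62 and 54 CPM, -2.34) and LHX1 (1.73 and 44.1 CPM, -2.20) and the forkhead factors FOXA2 (6.24 and 81.9 CPM, -2.5) and FOXD3 (1.84 and 56.7 CPM, -2.49) went the same way, as did NOTO, a homeobox factor of the node (8.08 and 42.1 CPM, -1.53), and the kinase STK26 (285 and 825 CPM, -1.5). SHH (0.21 and 6.84 CPM) and HESX1 (5.98 and 8.08 CPM) were low in both groups and were the members short of 2-fold with 10 CPM added. For SHH, nearly absent from graft cells, it is the added CPM that hold the ratio small. Host cells came from tissue around the graft site. Within this library, the stage and the region taken cannot be told apart for these genes. In HH4-HH4 0 hr, where donor and host had the same stage, the 14 members had a median log2 ratio of 0.16. Their summed level there was 3104 CPM in graft and 2530 CPM in host cells, against 381 and 2429 CPM in HH8-HH4 0 hr. What the region contributes to the difference was not tested.

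Genes of Nodal signalling and the mesendoderm it induces were lower for 6 of 9 members, with a median of -1.79. MIXL1, a homeobox factor of the streak, had the lowest ratio of all genes, with 56 CPM in graft cells (52.7 to 59.5) and 1619 CPM in host cells (1599.5 to 1639), or -4.62 on the log2 scale. Its place below HINTW and SOX17 was not stable: of 16 alternatives, HINTW was the lowest of the genes followed in 7 and SOX17 in 1, and with cells of 1 or 2 eGFP UMIs counted as graft the ratio of MIXL1 was -3.07 and that of HINTW -3.13. At 2000 UMIs it was detected in 84 graft cells (4.14%) and 660 host cells (38.2%), and in 14.5% and 49.7% without thinning. EOMES, a T-box factor of early mesendoderm, was at 14.8 and 267 CPM (-3.48). The TGF-beta ligand GDF3 (29 and 216 CPM, -2.53), the antagonist LEFTY1 (6.82 and 48 CPM, -1.79) and the co-receptor CFC1 (101 and 306 CPM, -1.51) were lower as well. The receptors ACVR2A (87.5 and 88.3 CPM) and ACVR2B (245 and 357 CPM) and the mediator SMAD3 were not.

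Of the UMIs of MIXL1 in graft cells, 68.7% came from 23 cells with over 1000 CPM, 19 of which were called doublets. The other 2006 graft cells stood at 17.8 CPM. With the cells called doublets removed from both groups, the log2 ratio of MIXL1 was -5.61, and that of HOXA7 was 6.19.

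Endoderm markers were lower for 4 of 8 members, with a median of -1.69. SOX17, the factor that defines the early endoderm, was at 11.8 CPM in graft and 466 CPM in host cells (-4.45). GATA6 (5.93 and 79.7 CPM, -2.49), FOXA2 and the apolipoprotein APOA1 (16.5 and 135 CPM, -2.46) were lower, while GATA4 (-0.92) and GATA5 (-0.86) came short of 2-fold and CXCR4, a chemokine receptor, was even at 97.2 and 90.2 CPM. A UMI of SOX17 or APOA1 was present in 46 graft cells (2.27%) and 343 host cells (19.9%) at 2000 UMIs, and in 10.5% and 39.9% of cells without thinning, so that more host cells held endoderm markers. Without all cells with a UMI of either gene, 13 of the 15 lowest genes and all 15 highest were still 2-fold or more apart. SOX17 itself is at 0 there by construction, and LOC395991, a gene known by its identifier only, went from -2.99 to 0.044.

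Presomitic mesoderm genes were lower in 10 of 20 measured members and higher in 1, with a median of -0.96. AGRP, a secreted melanocortin antagonist listed here with ingressed mesoderm, was at 45.9 CPM in graft and 713 CPM in host cells (-3.70). ALDH1A2, which makes retinoic acid, stood at 7.97 and 177 CPM (-3.38), and RDH10, which makes its precursor, at 25.6 and 139 CPM (-2.07). The early presomitic factors MSGN1 (228 and 940.2 CPM, -1.99) and TBX6 (71.9 and 163 CPM, -1.07) and the later MEOX1 (5.77 and 85 CPM, -2.59), TCF15 (21 and 63.5 CPM, -1.24) and FOXC2 (3.25 and 26.4 CPM, -1.46) were lower. MSGN1 was detected in 28.6% of graft and 42.2% of host cells at 2000 UMIs, and in 56.2% and 54.7% without thinning. The 95th percentile of its level per cell was 984 CPM in graft and 4010.4 CPM in host cells, and the highest graft cell was at 2873 CPM, so that some host cells held levels of MSGN1 that were not seen in the grafts.

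Notch genes of the segmentation clock were closer to even. The ligand DLL1 was at 566 and 836 CPM (-0.56), the glycosyltransferase LFNG at 349 and 437 CPM (-0.32), NOTCH1 at 239.9 and 181 CPM (0.39) and MESP1, a factor of the somite boundary, at 166 and 151 CPM (0.13). HES5, a target of Notch that is also used in neural tissue, was the 1 member that was higher, at 55.8 and 9.74 CPM (1.74).

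Genes of the epiblast and early neural plate were lower in 12 of 17 members and higher in 0, with a median of -1.53. Pou5f3, the chicken pluripotency factor related to mammalian OCT4, was at 150.4 CPM in graft and 615 CPM in host cells (-1.96). Its level per cell had a median of 123 CPM in graft and 572 CPM in host cells, with 5th to 95th percentiles of 0 to 415 and of 125 to 1206. GBX2 (18.3 and 122 CPM, -2.22), OTX2 and SOX3 (64.6 and 167 CPM, -1.25), factors of the epiblast and neural plate, and the early neural response genes ENS-3 (2.57 and 39.2 CPM, -1.97), ANO3 (13.9 and 81.1 CPM, -1.93), ERNI (2.89 and 27.2 CPM, -1.53), SGK1 (9.50 and 46.1 CPM, -1.53) and ASTL (39.6 and 89.6 CPM, -1.01) were lower. SOX2, a neural factor low in both groups, was not (9.81 and 7.09 CPM), nor were SALL4, a zinc finger factor of pluripotent cells (433 and 537 CPM), and the DNA methyltransferases DNMT3A (449.8 and 463 CPM) and DNMT3B (242 and 327 CPM).

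Most adhesion, matrix and EMT genes came short of 2-fold. Of 29 measured members 2 were higher and 4 lower, against 1.8% and 4.13% of all genes, with a median of -0.21. PRTG, the adhesion molecule protogenin, was at 1270.2 and 510.1 CPM (1.30), and COL4A1, a basement membrane collagen, at 72 and 26.8 CPM (1.15). CDH11, a mesenchymal cadherin (12.3 and 63.1 CPM, -1.71), TMSB4X, which binds actin monomers (4504 and 12351 CPM, -1.45), GJA1, a gap junction protein (424 and 1080.4 CPM, -1.33), and ZEB2, an EMT factor (42.3 and 109 CPM, -1.18), were lower. The cadherins most tied to EMT were even, with CDH1 at 48.9 and 58 CPM (-0.21) and CDH2 at 978 and 1079 CPM (-0.14). SNAI2, a regulator of EMT in the chicken streak, was at 325 and 437 CPM (-0.41), FN1, fibronectin, at 372 and 276 CPM (0.41) and LAMA1, a laminin chain, at 64.6 and 73.6 CPM (-0.16). COL1A2 came just short of 2-fold, at 535 and 1052 CPM (-0.96).

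Of 8 genes listed as heterochronic, a name taken from genes of developmental timing in worms, 1 was higher and 0 lower. This stands beside 1.8% and 4.13% of all genes, and 1 gene cannot speak for the list. LIN28A, an RNA-binding protein that blocks let-7 maturation, was at 599.7 CPM in graft and 217 CPM in host cells (1.43). Its paralog LIN28B was at 215 and 181 CPM (0.24), HMGA2, a chromatin protein repressed by let-7, at 43.5 and 21 CPM (0.79) and TRIM71 at 398 and 423 CPM (-0.09).

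Housekeeping groups were near even, apart from a small shared shift of the ribosomal protein genes, and give a scale for the other lists. In glycolysis 2 of 16 genes passed 2-fold, and these were the 2 chains of lactate dehydrogenase, LDHB higher at 4669.5 and 2101 CPM (1.15) and LDHA lower at 68.5 and 304 CPM (-2.0), while GAPDH stood at -0.10 and the list median at -0.04. None of the 41 genes of oxidative phosphorylation, 53 ribosomal protein genes, 17 genes of G2 and M phase and 11 genes of S phase passed 2-fold in either direction. Their medians were -0.11, 0.15, -0.14 and -0.12, and in the 2 cell cycle lists all values lay between -0.73 (CENPF, a kinetochore protein) and 0.25 (KPNA2, a nuclear import receptor). All 53 ribosomal protein genes lay above 0, from 0.016 to 0.453, with a sum of 266486 CPM in graft and 236841 CPM in host cells. Their median in HH4-HH4 0 hr was 0.015. With these genes left out of the totals, 107 genes were higher and 199 lower. Of 12 stress genes, the chaperone HSPH1 was higher (296 and 67.1 CPM, 1.99) and HSPA2 lower (50.8 and 151 CPM, -1.40), and the early response genes FOS (0.14), JUN (-0.51) and EGR1 (0.02) did not reach 2-fold.

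**Figure D4:**
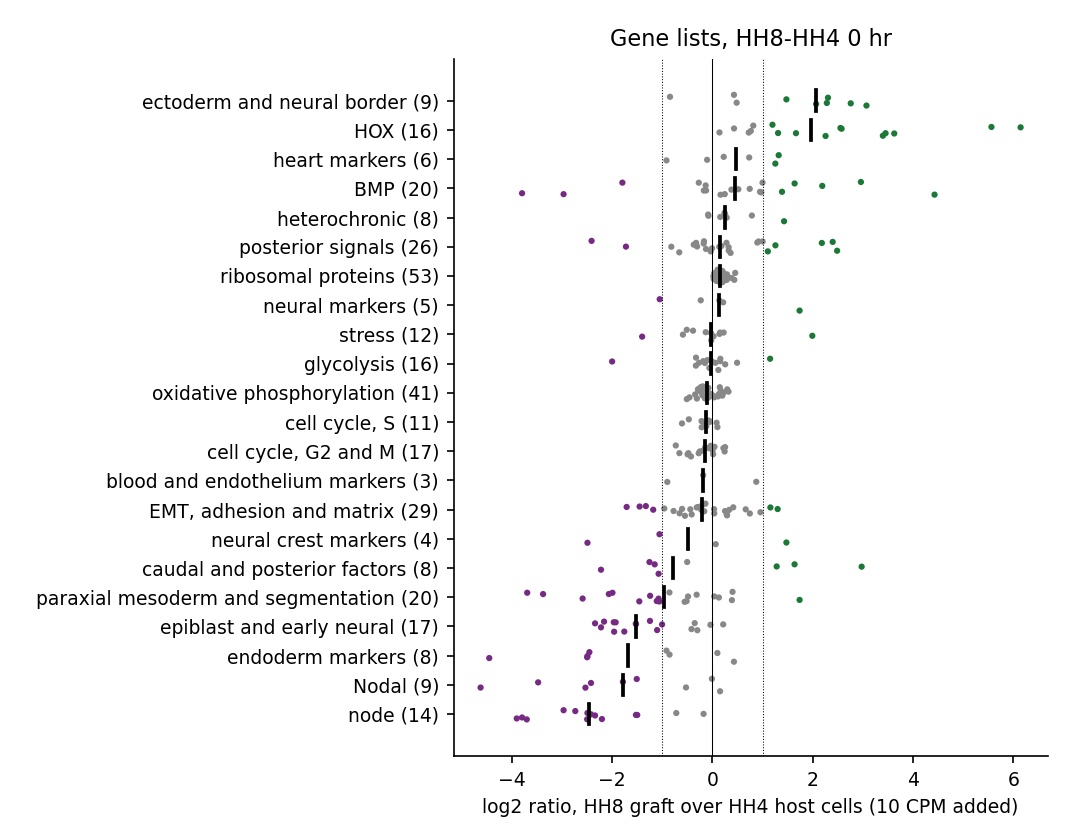
Log2 ratio of graft over host cells (10 CPM added) for the measured members of each gene list, with the number of members in brackets, list medians as black bars and dotted lines at 2-fold; green points are higher and purple points lower in graft cells. The medians run from -2.46 for node genes to 2.07 for ectoderm and neural border genes, and the ribosomal, oxidative phosphorylation and cell cycle lists lie close to 0.

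Markers of other cell types were scarce. The defining heart markers NKX2-5, TNNT2 and TBX5 were below the minimum of 100 UMIs, as were the blood and endothelium markers TAL1, HBZ and CDH5, the neural crest marker SOX10, the neural markers SOX1 and PAX6 and both germ cell markers. Of 6 measured members of the heart list 2 were higher, HAND2 (16.1 and 0.432 CPM, 1.32) and ISL1 (15.2 and 0.555 CPM, 1.25), factors also used in lateral and posterior mesoderm. The other 4, MYH7, MYH15, HAND1 and GATA4, did not reach 2-fold, the lowest at -0.92. Of 4 measured members of the neural crest list 1 was higher and 2 lower, and of 5 of the neural list 1 was higher and 1 lower. KDR, a receptor of endothelial precursors, was at 19 and 5.86 CPM (0.87). Of the markers listed for HH8 posterior mesodermal progenitors, HOXA7, HOXB8, CDX4, MSX1, WNT5A and FGF19 were each over 2-fold higher in graft cells. T was within 2-fold of host cells. All of these but T are among the 15 highest genes of this comparison, and the lists were chosen with earlier results known. Their levels are therefore no separate test of the label. The grafts also held the cells with TFAP2A or DLX5.

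Some of the named genes belong to no list. RASGRP3, an exchange factor for Ras proteins, was higher at 121 CPM in graft and 6.1 CPM in host cells (3.02). BCL11A, a zinc finger repressor (6.77 and 126 CPM, -3.02), SLC2A14, a glucose transporter (15.3 and 169.8 CPM, -2.83), and LIMS1, an adaptor of integrin adhesions (13.4 and 131 CPM, -2.59), were among the 15 lowest.

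HINTW was the gene with the second lowest ratio (-4.58), at 204 CPM in graft and 5113 CPM in host cells. It lies on the W chromosome, which only female birds carry, and the sexes of the pooled embryos are not given in the sources used here. Its level in host cells was of 2 kinds, with 774 cells (44.8%) over 1000 CPM and the other 952 at 44.5 CPM together. Among graft cells 40 (1.97%) were over 1000 CPM, held 78.1% of the graft UMIs of the gene and included 26 called doublets, while the other 1989 stood at 46.0 CPM. Cells with a high HINTW level were thus almost absent from the grafts. In cells without a HINTW UMI, 1350 graft and 624 host, 99 genes were higher and 189 lower, of which 76 and 151 were among those called in all cells. The ratios of HOXA7 (5.96), MSX2 (4.53) and MIXL1 (-5.72) there were as large as or close to those in all cells.

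Graft cells were then split by ectoderm markers. At 2000 UMIs per cell, 525 graft cells had a UMI of TFAP2A or DLX5, and these were set beside the other 1504, at median depths of 9164 and 8695 UMIs. Levels below use all UMIs of these cells, and the 1504 held both genes at a lower level, DLX5 at 69.5 CPM and TFAP2A at 12.3 CPM. HOXA7 stood at 2743 and 2321 CPM, HOXB8 at 1192 and 1152 CPM, HOXA9 at 73.8 and 45.9 CPM, CDX4 at 977 and 1148 CPM and WNT5A at 652 and 602 CPM. FABP7, in contrast, was at 4324 and 2154 CPM, MSX2 at 477 and 198 CPM, BMP4 at 160 and 44.2 CPM, ID1 at 2605 and 1722 CPM and ID3 at 327 and 166 CPM. The epithelial genes CLDN3 (200.5 and 21.1 CPM), KRT7 (216 and 20.7 CPM), CDH1 (87.1 and 35 CPM) and EPCAM (813 and 429 CPM) were higher in the cells with these markers. So was GATA2 of the ectoderm and neural border list, at 306 and 149 CPM. PAX3 of the same list was lower in them, at 42.5 and 61.2 CPM. Mesoderm genes went the other way, MSGN1 at 122 and 268 CPM, TBX6 at 33.5 and 86.0 CPM, DLL1 at 346 and 646 CPM, CDH2 at 581 and 1123 CPM and COL1A2 at 278 and 629.6 CPM. FN1, listed with matrix genes like COL1A2, did not, at 452 and 342 CPM. T was detected in 75.6% of the cells with and 84.8% of those without, so that the ectoderm markers occurred mostly together with T.

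The comparison with host cells was also made without cells that held ectoderm or endoderm markers. With all cells that held a UMI of TFAP2A, DLX5, SOX17 or APOA1 before thinning removed from both groups, leaving 862 graft and 909 host cells, the log2 ratio of HOXA7 was 5.85, that of CDX4 2.84, that of MSX1 3.11 and that of FGF19 2.61. FABP7 went from 2.76 to 1.90, MSX2 from 4.43 to 3.59 and ID1 from 2.19 to 1.75. BMP4 went from 0.97 to -0.14 and PAX7 from 1.47 to 0.68. What each kind of cell contributed to these moves was not tested. In the same cells node and streak genes were still lower, with GSC at -2.93, CHRD at -3.45, EOMES at -3.02 and MIXL1 at -4.30.

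The 581 graft cells with a MSGN1 UMI at 2000 UMIs per cell had less HOXA7 than graft cells as a whole, at 1597 against 2434 CPM, while HOXB8 was at 1056 against 1163 CPM and HOXA5 at 118 against 131 CPM. Their TBX6 level was 105 against 71.9 CPM and their CDH2 level 1267 against 978 CPM.

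The same contrast of eGFP graft against wild-type host cells was then set beside that in HH4-HH4 0 hr, where donor and host had the same stage, with 720 graft and 1764 host cells. Of 4414 genes measured there 8 (0.181%) were higher and 3 (0.068%) lower by at least 2-fold, and 98.5% lay within 0.5 of 0. The 15 genes highest in HH8 grafts had a median log2 ratio of -0.03 there, against 3.02 in HH8-HH4 0 hr, but just 7 of them had 100 UMIs in HH4-HH4 0 hr, with a median of -0.06, and the ratios of the rest are near 0 by construction. The 15 lowest, all measured there, had a median of 0.16 against -3.48. The 2 libraries are from different pools of embryos, and the difference between them was not tested.

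In HH8-HH4 3 hr, which held 116 graft and 232 host cells, 86 genes (2.43%) were higher and 116 (3.27%) lower. Of the 15 highest genes 14 were again 2-fold higher, with a median of 2.97, and of the 15 lowest 13 were 2-fold lower, with a median of -2.45. HOXA7 was at 1794 CPM in graft and 20.3 CPM in host cells and HOXB8 at 999.5 and 7.33 CPM. FGF19, at 237 and 129.8 CPM (0.82), was the highest-ranking gene that did not reach 2-fold at 3 hr. Among the 15 lowest genes of 0 hr, ALDH1A2 (22.1 and 28.1 CPM, -0.25) and HHEX (-0.37) were those that did not reach 2-fold at 3 hr. T, lower by less than 2-fold at 0 hr (-0.5), was at 476 CPM in graft and 2004 CPM in host cells at 3 hr (-2.05).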

How the data were processed

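The authors made cDNA libraries with the 10x Genomics 3′ workflow, aligned reads with CellRanger (6.1.1 in the file headers) to a transcriptome of galGal6, and deposited UMI counts per gene and barcode, without normalisation. The deposited gene and barcode lists hold names and no values. Of 6940 symbols 6821 were matched in RefSeq.

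The 2 samples of HH4-HH4 0 hr shared 2755 barcodes of 3098 and 2757, and were taken as 1 library (replicate 2). UMI counts were summed per group, scaled to 1000000 (CPM) and compared as log2 ratios with 10 CPM added, over genes with at least 100 UMIs in both groups together and without eGFP. Calls are at least 2-fold, and no p-value was computed, since both groups of a comparison come from 1 library and cells are not replicates. Levels have exact Poisson and shares Clopper-Pearson intervals at 95%, which cover counting error only. Shares used cells thinned to 2000 UMIs. Named genes are the 15 with the largest and the 15 with the smallest ratio and members of the gene lists. The comparison, its members and the lists were chosen with earlier results of these data known. Scrublet (scanpy 1.11.5, expected rate 6%) was used for doublets, which were kept. Other software was pandas 2.3.3, numpy 2.4.6 and scipy 1.17.1 on Python 3.11.15. In all 16 alternatives were run, 2 of them chosen after seeing the data. The summing and log2 ratios were tested on simulated data. The result of 1 member of the Nodal list is not reported here.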

Additional observations from a re-analysis of the deposited data

Results flagged for a closer look

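Among named genes and list members, 4 were at least 2-fold apart between graft and host cells in opposite directions in HH8-HH4 0 hr and HH4-HH4 0 hr. HINTW, of the W chromosome, was at 204 and 5113 CPM in graft and host cells of the former (-4.58) and at 7578 and 2434 CPM in the latter (1.63). LDHA, a lactate dehydrogenase chain, was at 68.5 and 304 CPM (-2.0) against 229 and 70.3 CPM (1.57). MEOX1, a somite factor, was at 5.77 and 85 CPM (-2.59) against 88.4 and 35.9 CPM (1.10). CDX2, a caudal factor, was at 739 and 299 CPM (1.28) against 74.1 and 159 CPM (-1.01). None of these differences was tested, as each library stands for 1 pool of embryos. Host cells, HH4 and wild type in both, differed between the libraries as well, LDHA standing at 304 CPM in hosts of HH8 grafts and 70.3 CPM in hosts of HH4 grafts.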

How the results depend on the processing

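No paired analysis was possible because each condition is 1 library and replicate numbers pair nothing. Over 16 alternatives, 69 to 107 genes were higher and 140 to 199 lower, with 1 exception. Adding 1 CPM in place of 10 gave 173 higher and 335 lower. The 10 added CPM hold the log2 ratios of low genes low, so that such genes pass 2-fold more readily with 1. Scaling by the median gene gave 98 higher and 157 lower, and the 11 HOX genes called higher were 10 to 14. The filter on genes cannot move a single gene's ratio. Over the other 14 alternatives, of 588 values for 42 single genes 363 stayed within the counting interval, 224 moved and 1 called value changed sign, that of LOC395991, at 0.044 without cells with SOX17 or APOA1. Among those that moved, genes under 2-fold that changed sign were HOXB1, DLL1, CDH2 and BMP4. Shares of cells depended on depth. HOXA7 was detected in 98.9% of graft and 17.9% of host cells unthinned and in 97.8% and 9.92% at 5000 UMIs, and HOXB8 in 99.6% and 10.7% unthinned and in 99.2% and 6.01% at 5000 UMIs. The limits are 1 library, pooled embryos of unknown sex, and a host region wider than the graft. Cells with a high HINTW level made up 44.8% of host and 1.97% of graft cells, so that sex may differ between the groups. Genes under 100 UMIs, among them 7 HOX genes, could not be compared at this depth.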

Other observations

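Genes outside the lists that passed 2-fold were looked at after their values were seen. Higher in graft cells were enzymes and transporters such as ELOVL6, which elongates fatty acids (178 and 26.3 CPM in graft and host cells, 2.37), CYP51A1 of sterol synthesis (231 and 75.5 CPM, 1.5), OAT, ornithine aminotransferase (270.1 and 59.5 CPM, 2.01), and ATP2B1, a calcium pump (1104 and 279 CPM, 1.95). STRA6, a receptor for retinol uptake, was at 102 and 23.2 CPM (1.76), while the retinoic acid enzymes ALDH1A2 and RDH10 were lower. The transcription factors SALL1 (431 and 119 CPM, 1.77), GLI3 (87.4 and 22.1 CPM, 1.60), MYCN (270.2 and 106 CPM, 1.27) and PAX2 (18.5 and 2.10 CPM, 1.23), the ligand FGF10 (29.4 and 0.863 CPM, 1.86) and EGFL7, a secreted factor (72.8 and 6.97 CPM, 2.29), were higher as well.

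Lower in graft cells were FGFR3, an FGF receptor (12.4 and 85.1 CPM, -2.08), B2M, the light chain of MHC class I (63.7 and 265 CPM, -1.90), S100A11, a calcium-binding protein (43 and 191 CPM, -1.92), ROR1, a receptor for Wnt ligands (9.18 and 50.8 CPM, -1.66), NFASC, a neuronal adhesion molecule (26.9 and 168 CPM, -2.27), and NTN1, the guidance cue netrin (1.21 and 22.4 CPM, -1.53). Genes of hormones and neuropeptides were among them at low levels, POMC at 7.45 and 41.4 CPM (-1.56) and NPY at 3.36 and 25.1 CPM (-1.39).

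Of the 6 host cells with over 1000 CPM of HOXA7 and HOXB8 together, 4 were at or under 1000 CPM of HINTW, with a median of 2399 UMIs per cell. Conversely, 4 of the 86 graft cells at or under 1000 CPM of both HOX genes were over 1000 CPM of HINTW, and 3 of these 4 were called doublets.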
